A study of Mus musculus with 31 samples.

Results

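The liver makes cholesterol and fatty acids through a pair of pathways whose genes are switched on by the sterol regulatory element-binding proteins (SREBPs). The transcripts of 34 such genes, of 31172 gene symbols quantified, were followed in the livers of 31 mice. They were chosen by name as SREBP-controlled genes, with earlier results of these data known, and every one of them was found in the table of each mouse. The sterol branch held 17 genes, from *Hmgcs1* (HMG-CoA synthase, the entry into the mevalonate pathway) to *Dhcr7* (the reductase of 7-dehydrocholesterol). The fatty acid branch held 12 genes, from *Acly* (ATP citrate lyase, the source of cytosolic acetyl-CoA) to *Pnpla3* (a lipid droplet hydrolase). The remaining 5 genes encode the regulators of the system, *Srebf1*, *Srebf2*, *Scap*, *Insig1* and *Insig2*.

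All 31 mice were of the hFIX-R29X hemophilia B strain, which lacks mouse *F9* and carries a human factor IX minigene with the R29X nonsense mutation, driven in hepatocytes by a human transthyretin promoter. They were 8 to 14 weeks old and were injected 6 times, every 5 days by the treatment protocol, although another label field gives a weekly schedule, and were killed 48 h after the last injection. The DPBS-treated group received buffer alone and held 11 mice (6 female, 5 male). Control-GalNAc-ASO, a scrambled antisense oligonucleotide (ASO), was given at 15 mg/kg to 4 mice (2 female, 2 male) and at 20 mg/kg to 6 mice (3 female, 3 male). *Upf3b*-GalNAc-ASO, which directs RNase H to the mRNA of the nonsense-mediated decay factor *Upf3b*, was given at 10 mg/kg to 5 mice and at 20 mg/kg to 5 mice (2 female and 3 male in each). Both ASOs carry N-acetylgalactosamine (GalNAc), a sugar that takes them into hepatocytes through the asialoglycoprotein receptor. The question for these genes was whether depletion of *Upf3b* moved lipid synthesis transcripts away from their level under the Control-GalNAc-ASO, and whether the sterol and the fatty acid branch moved alike.

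The regulators work by holding or releasing a transcription factor. *Srebf1* and *Srebf2* encode SREBP precursors that sit in the endoplasmic reticulum bound to the escort protein *Scap*. When sterols are plentiful, *Insig1* and *Insig2* retain *Scap* there, and when sterols fall the complex moves to the Golgi, where proteases free the active factor. The *Srebf2* product mainly drives the sterol genes. The short *Srebf1* form mainly drives the fatty acid genes in liver, where insulin, liver X receptors and the carbohydrate sensor *Mlxipl* also raise them.

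SREBPs act on promoters together with the factor NF-Y, which binds CCAAT boxes, so the proximal promoters of the genes were read first. RefSeq promoter windows of 300 bases (250 before and 50 after a start, build GRCm38.p6) matched 29 of the 34 genes in 38 windows. Printed here are 141 bases, from 150 to 10 bases before the start, of 3 sterol and 2 fatty acid genes, each 5′ to 3′ on the gene's own strand. They were chosen because the stretch overlaps no annotated exon of its gene and holds a CCAAT box, the motif found in most windows of both branches. Capitals mark matches to CCAAT or its reverse complement ATTGG, to the E-box CACGTG, and to the sterol regulatory element spelled TCACNCCAC. The *Fasn* stretch holds CCAAT and ATTGG overlapping in 1 run.
*Hmgcs1*, chr13:119690201-119690341, plus strand: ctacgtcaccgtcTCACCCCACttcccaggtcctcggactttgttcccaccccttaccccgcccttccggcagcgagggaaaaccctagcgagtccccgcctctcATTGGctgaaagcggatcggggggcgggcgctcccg
*Mvk*, chr5:114444119-114444259, plus strand: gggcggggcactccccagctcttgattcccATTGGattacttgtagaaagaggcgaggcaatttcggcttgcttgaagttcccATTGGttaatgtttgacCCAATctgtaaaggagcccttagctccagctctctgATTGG
*Sc5d*, chr9:42264310-42264450, minus strand: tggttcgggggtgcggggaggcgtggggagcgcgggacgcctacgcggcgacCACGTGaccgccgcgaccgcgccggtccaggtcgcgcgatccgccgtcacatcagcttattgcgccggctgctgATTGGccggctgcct
*Fasn*, chr11:120824557-120824697, minus strand: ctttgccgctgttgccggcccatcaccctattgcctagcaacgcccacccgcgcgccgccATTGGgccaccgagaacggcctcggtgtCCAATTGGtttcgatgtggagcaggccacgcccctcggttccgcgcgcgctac
*Elovl5*, chr9:77917215-77917355, plus strand: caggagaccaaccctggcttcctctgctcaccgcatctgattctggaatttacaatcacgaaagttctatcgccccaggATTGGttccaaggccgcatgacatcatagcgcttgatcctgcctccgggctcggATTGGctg

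Searched on both strands, CCAAT was in the windows of 25 of the 29 genes, and in 26 of 38 windows (68.4%), where 37.4% of all 32851 windows held it. In the sterol branch 14 of 14 genes with a window had the box, and in the fatty acid branch 7 of 10. The E-box was in 18.4% of the genes' windows against 7.15% of all, in *Dhcr7*, *Hsd17b7*, *Sc5d*, *Insig1*, *Scap* and *Elovl5*. The *Scap* windows with the E-box overlap and hold the same site, which is counted in each. No share by gene was computed for all genes. TCACNCCAC occurred in 1 window only, that of *Hmgcs1* (2.63% against 1.24% of all windows). These are matches of letters in short windows and are not measurements of binding.

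The values of a library corresponded to between 1020675 and 7391610 reads (median 3627938). This was computed from the TPM (a library's transcripts scaled to a common total) worth of 1 read, and 3 reads corresponded to between 0.406 and 2.94 TPM. The study's methods state a higher average sequencing depth. Hepatocyte markers were high in every mouse, with a summed level of 6 genes from 19412 to 45108 TPM. The targeted gene was read first as a check of the labels. *Upf3b* was at 66.9, 27.1, 58.5 and 78.7 TPM in the Control-GalNAc-ASO 15 mg/kg mice and at 85.3 to 135 TPM (median 113) in the Control-GalNAc-ASO 20 mg/kg mice. It was at 9.37, 2.68, 2.57, 16.7 and 7.68 TPM in the *Upf3b*-GalNAc-ASO 20 mg/kg mice (replicates 1, 2, 4, 5 and 6), all below every control. At 10 mg/kg it was at 5.97, 20.7, 53.7, 3.95 and 23.3 TPM (replicates 1 to 5). The library labelled *Upf3b*-GalNAc-ASO 10 mg/kg replicate 3 therefore lay within the control range and against its label, and it was also the shallowest of all. Replicate 2 of the 20 mg/kg group also stood apart, with the lowest mean of both branches, 63.9 TPM of the lipid droplet gene *Cidec* and 180 TPM of *Sox9*, where the highest values of those genes in any other mouse were 6.95 and 21.2 TPM. Results that rest on these mice are given with and without them.

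The main comparison set the 10 *Upf3b*-GalNAc-ASO mice against the 10 Control-GalNAc-ASO mice. It fitted 1 common effect, with dose level (10 with 15 mg/kg and 20 with 20 mg/kg) and sex as covariates. Most of the genes that fell belonged to the fatty acid branch, and the branches were not tested against each other. At an adjusted p under 0.05, 9 of the 33 genes with enough signal to be tested fell and 0 rose, where 3.64% of the 9797 genes tested were called lower. They were 7 of 11 tested genes of the fatty acid branch (*Thrsp*, *Scd1*, *Acacb*, *Fasn*, *Acaca*, *Me1* and *Fads1*), 2 of 17 of the sterol branch (*Idi1* and *Cyp51*) and 0 of 5 regulators. The median difference in log2(TPM + 1) was -0.85 over the fatty acid genes, with 10 of 11 lower, and -0.11 over the sterol genes, with 11 of 17 lower. Over all genes tested the median was -0.06 and 54.5% were lower. Since the list was chosen with earlier results of these data known, these shares describe it and do not test it. By the study's own thresholds, an unadjusted p of at most 0.01 and a change of at least 2-fold, 5 genes were lower (*Idi1*, *Acacb*, *Fasn*, *Scd1* and *Thrsp*), where 3.54% of all genes were. *Pnpla3* was below the filter on low values, with group medians of at most 4.75 TPM, and was tested only between the sexes. P-values came from limma with Benjamini-Hochberg adjustment over all genes tested and measure the spread between these mice. In whole liver, fewer cells of a type and less RNA per cell cannot be told apart.

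**Figure D1:**
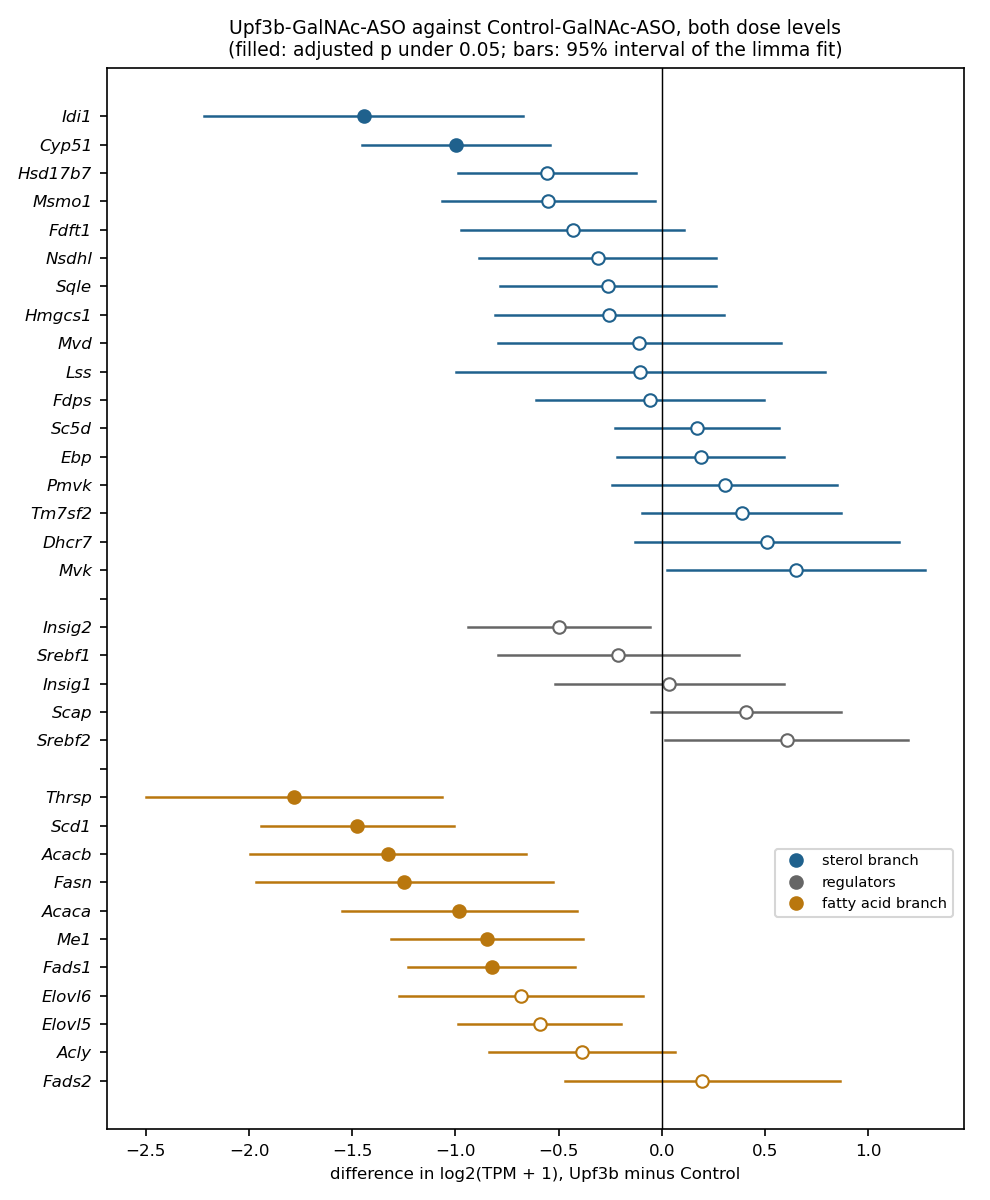
Difference in log2(TPM + 1) between *Upf3b*-GalNAc-ASO and Control-GalNAc-ASO mice over both dose levels (x axis) for each tested gene (y axis), ordered within the sterol branch, the regulators and the fatty acid branch. Points are limma estimates, bars their 95% intervals and filled points an adjusted p under 0.05. The 7 filled fatty acid genes lie between -1.78 and -0.82, and among the 17 sterol genes only *Idi1* and *Cyp51* are filled.

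*Scd1* encodes stearoyl-CoA desaturase, which makes monounsaturated fatty acids, and it was the gene with the smallest p. It was at 4542, 4491, 5038 and 2409 TPM in the Control-GalNAc-ASO 15 mg/kg mice and at 1277 to 3777 TPM (median 1900.5) in the 20 mg/kg controls. It was at 1347, 1801, 825, 999 and 1934 TPM at 10 mg/kg of *Upf3b*-GalNAc-ASO and at 895, 1409, 539, 1371 and 492 TPM at 20 mg/kg. All 5 mice at 10 mg/kg lay below all 4 of their controls, while at 20 mg/kg 3 of 5 lay below all 6. *Scd1* fell by 1.48 ± 0.23 on the log2 scale (limma estimate ± standard error, adjusted p = 1.84e-04), a change of -64.0%.

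*Thrsp* (Spot 14), a small protein that accompanies fatty acid synthesis, showed the largest fall of all members. It was at 503, 817, 318 and 522 TPM in the 15 mg/kg controls and at 129 to 524 TPM (median 356) in the 20 mg/kg controls. The *Upf3b*-GalNAc-ASO mice were at 94.8, 104, 129, 106 and 402 TPM at 10 mg/kg and at 188, 134, 91.2, 126 and 23.6 TPM at 20 mg/kg. Replicate 5 of the 10 mg/kg group was the mouse that overlapped with its controls, and at 20 mg/kg the groups overlapped through control replicate 1, at 129 TPM. *Thrsp* fell by 1.78 ± 0.35 (limma adjusted p = 0.00304), a change of -70.9%.

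The core of the pathway is a short chain of enzymes. *Acaca* and *Acacb* encode the acetyl-CoA carboxylases that make malonyl-CoA, in the cytosol and at the mitochondrial surface, and *Fasn* the synthase that builds palmitate from it. *Fasn* was at 373, 412, 189.9 and 289 TPM in the 15 mg/kg controls and at 117 to 304 TPM (median 187) in the 20 mg/kg controls. It was at 114, 68.4, 83.3, 104 and 262 TPM at 10 mg/kg of *Upf3b*-GalNAc-ASO and at 231, 12.7, 94.4, 151 and 94.2 TPM at 20 mg/kg. Replicate 5 at 10 mg/kg and replicates 1 and 5 at 20 mg/kg overlapped with the controls, and the lowest value, 12.7 TPM, belonged to replicate 2 of the 20 mg/kg group. *Fasn* fell by 1.25 ± 0.35, *Acacb* by 1.33 ± 0.33 and *Acaca* by 0.98 ± 0.28 (limma adjusted p = 0.032, 0.014 and 0.032). In controls the means were 72.7 ± 19.6 (SD, n = 4) and 60.1 ± 17.2 TPM (SD, n = 6) for *Acacb* and 66.1 ± 20.0 and 53.1 ± 24.0 TPM for *Acaca*. Under *Upf3b*-GalNAc-ASO they were 37.9 ± 22.4 and 23.5 ± 12.9 TPM (SD, n = 5 each) for *Acacb* and 38.6 ± 17.7 and 24.3 ± 14.2 TPM for *Acaca*.

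*Me1* (malic enzyme, a supplier of NADPH) and *Fads1* (the delta-5 desaturase of polyunsaturated fatty acids) fell by 0.85 ± 0.23 and 0.82 ± 0.20 (limma adjusted p = 0.023 and 0.012). At 20 mg/kg of *Upf3b*-GalNAc-ASO *Fads1* was at 78.6, 59.9, 63.1, 61.5 and 59.3 TPM, all below the 6 controls at 85.0 to 148 TPM (median 107). At 10 mg/kg it overlapped with its controls, at 79.6, 100.01, 50.9, 108 and 64.4 TPM against 194, 157, 106 and 145 TPM. *Me1* was at 202, 273, 287, 176 and 268 TPM at 10 mg/kg against 367, 506, 351 and 263 TPM, and at 172, 50.5, 141, 151 and 148 TPM at 20 mg/kg against 162 to 338 TPM (median 281).

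The other 4 members of the branch did not pass the test. The elongases *Elovl5* and *Elovl6* had differences of -0.59 ± 0.19 and -0.68 ± 0.29 (limma adjusted p = 0.063 and 0.157), and for *Acly* the difference was -0.39 ± 0.22. *Fads2*, the delta-6 desaturase next to *Fads1* in the genome, had the only positive difference of the branch, 0.20 ± 0.33. *Elovl6* was at 414 TPM in the library labelled *Upf3b*-GalNAc-ASO 10 mg/kg replicate 3 and at 104 to 137 TPM in the other 4 mice of that group.

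**Figure D2:**
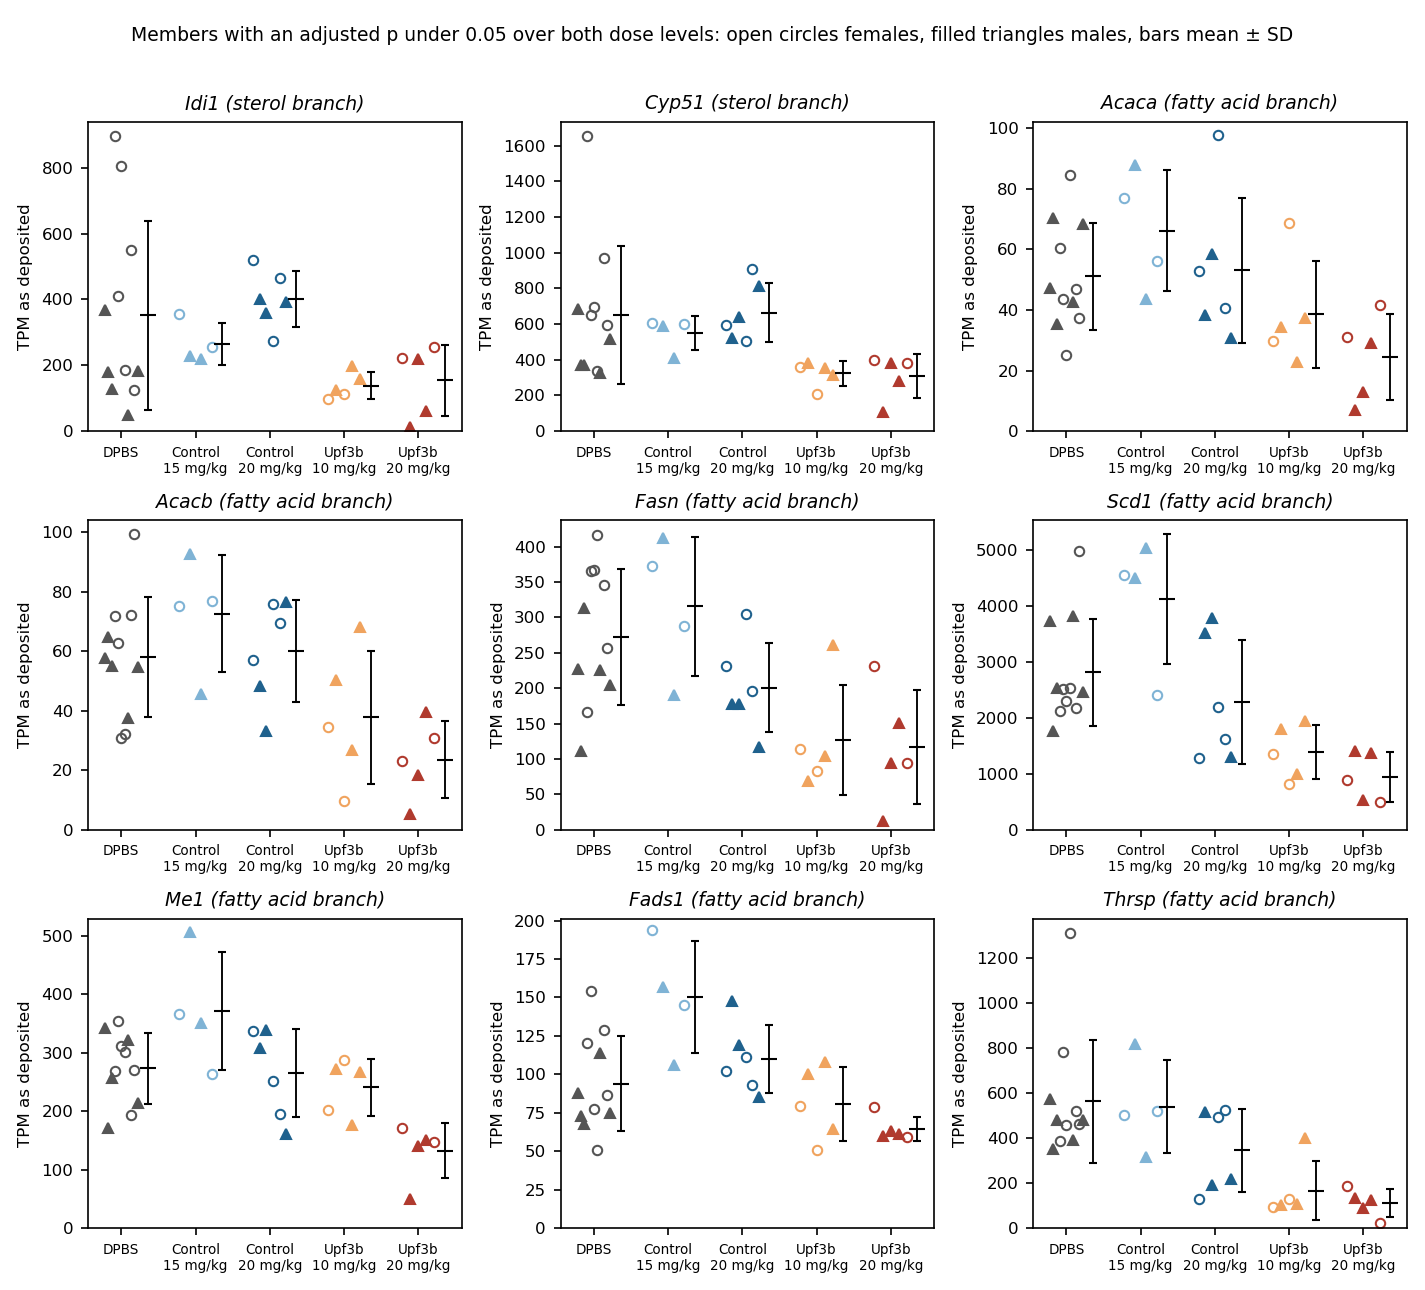
TPM (y axes, starting at 0) of 9 genes called over both dose levels in each of 31 mice, by group (x axes). Open circles are females, filled triangles males, and bars mean ± SD. The *Cyp51* values of the 10 *Upf3b*-GalNAc-ASO mice all lie below those of the 10 Control-GalNAc-ASO mice, at most 398 against at least 407 TPM.

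In the sterol branch the falls were in single steps. *Cyp51*, the lanosterol demethylase, was at 604, 588, 407 and 603 TPM in the 15 mg/kg controls and at 507 to 909.6 TPM (median 617.8) in the 20 mg/kg controls. It was at 362, 384, 206, 356 and 315 TPM at 10 mg/kg of *Upf3b*-GalNAc-ASO and at 398, 106, 383, 283 and 382 TPM at 20 mg/kg. Every treated mouse lay below every control, which held for 1 of the 33 members and for 0.265% of all genes tested. *Cyp51* fell by 0.996 ± 0.22 (limma adjusted p = 0.00725). *Idi1*, the isomerase of isopentenyl diphosphate, fell by 1.45 ± 0.37 (limma adjusted p = 0.022), with 8 of 10 treated mice below all controls. It was at 356, 227, 221 and 254 TPM and 274 to 519 TPM (median 397) in the controls, and at 98.4, 124, 114, 197 and 159 TPM and 223, 13.4, 219, 62.5 and 254 TPM in the treated mice. In the DPBS-treated mice both genes spread more widely, *Idi1* from 48.5 to 896 TPM and *Cyp51* from 325 to 1657 TPM, so that 9 of the 10 treated values of *Idi1* and 6 of those of *Cyp51* lay inside the range of the buffer group.

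The other 15 sterol genes passed no test in this comparison. *Hsd17b7* and *Msmo1*, which take part in removing methyl groups from the sterol ring downstream of *Cyp51*, had differences of -0.56 ± 0.21 and -0.55 ± 0.25 (limma adjusted p = 0.110 and 0.199). The largest positive differences were those of *Mvk* (mevalonate kinase), 0.65 ± 0.30, and *Dhcr7*, 0.51 ± 0.31. Between them lay *Fdft1*, *Nsdhl*, *Sqle*, *Hmgcs1*, *Mvd*, *Lss*, *Fdps*, *Sc5d*, *Ebp*, *Pmvk* and *Tm7sf2*, with differences from -0.43 to 0.39. *Hmgcs1* was at 153 to 612 TPM and 218 to 920.1 TPM in the controls and at 153 to 668 TPM and 96.2 to 505 TPM in the treated mice, and its difference of -0.25 had a 95% interval from -0.81 to 0.30. The spread within groups was wide for such genes, so changes of that size were not detectable here. *Lss*, the lanosterol synthase, was read at 0 in DPBS replicate 7, where 3 reads are worth 2.53 TPM.

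Leaving out single mice changed some of the calls. *Idi1*, *Cyp51*, *Acacb*, *Scd1*, *Fads1* and *Thrsp* were called whichever mouse was left out. *Acaca* was lost without Control-GalNAc-ASO 15 mg/kg replicate 2, Control-GalNAc-ASO 20 mg/kg replicates 3 or 4, *Upf3b*-GalNAc-ASO 10 mg/kg replicate 1 or 20 mg/kg replicates 2 or 4, with an adjusted p of up to 0.0858 in limma. *Fasn* was lost without Control-GalNAc-ASO 15 mg/kg replicates 1 or 2, 20 mg/kg replicates 2, 3 or 4, or *Upf3b*-GalNAc-ASO 10 mg/kg replicates 1, 2 or 3 (up to 0.0773), and *Me1* without Control-GalNAc-ASO 15 mg/kg replicate 2 or 20 mg/kg replicate 3 (up to 0.0623). Without Control-GalNAc-ASO 15 mg/kg replicate 2, 6 genes were called, and the share of all genes is not given for that fit. Without the library labelled *Upf3b*-GalNAc-ASO 10 mg/kg replicate 3, 11 were called (10 lower and *Srebf2* higher). Of all genes 4.12% were then called lower and 3.66% higher. Without that library and *Upf3b*-GalNAc-ASO 20 mg/kg replicate 2 together, a choice made after seeing the data, 13 were called, 8 of the fatty acid branch, 3 of the sterol branch and 2 regulators, 12 lower and 1 higher, where 3.80% of all genes were called lower and 4.34% higher. The sterol median was -0.11 with all mice, -0.10 without the first of these, 0.02 without the other and -0.06 without both, and the fatty acid median -0.85, -0.89, -0.81 and -0.73. All 9 genes above were among them, with *Idi1* at -1.05, *Cyp51* at -0.74, *Acacb* at -0.90, *Fasn* at -0.85 and *Scd1* at -1.49.

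The regulators were measured in the same mice. *Srebf2* was at 399.8, 149.9, 186, 221 and 224 TPM at 20 mg/kg of *Upf3b*-GalNAc-ASO against 109 to 161 TPM (median 122) in its controls, with 4 of 5 mice above all 6. The difference was 0.82 ± 0.25 (limma adjusted p = 0.083). At 10 mg/kg it spread from 51.9 to 432 TPM, and over both dose levels the difference was 0.60 ± 0.29 (limma adjusted p = 0.216). *Srebf2* rose by 0.86 (limma adjusted p = 0.013) without the library labelled *Upf3b*-GalNAc-ASO 10 mg/kg replicate 3, at 51.9 TPM, and by 0.89 (limma adjusted p = 0.00925) without both mice that stood apart. Over both dose levels its difference was 0.64 without 20 mg/kg replicate 2 and 0.68 after scaling by size factors. Neither was called (limma adjusted p = 0.223 and 0.141). Against the 20 mg/kg controls alone *Srebf2* rose by 0.92 without replicate 2 and by 0.93 after scaling by size factors (limma adjusted p = 0.040 and 0.036). *Insig2* had a difference of -0.50 ± 0.21 (limma adjusted p = 0.168) over both dose levels and fell by 0.64 (limma adjusted p = 0.032) without both mice that stood apart. It was not called without 10 mg/kg replicate 3 alone or 20 mg/kg replicate 2 alone (limma adjusted p = 0.128 and 0.062). After scaling by size factors the difference was -0.42 (limma adjusted p = 0.268). With weights per mouse *Insig2* fell by 0.58 over both dose levels (limma adjusted p = 0.037). At 20 mg/kg *Insig2* fell by 1.004 (limma adjusted p = 0.023) without replicate 2. After scaling its difference there was -0.62 (limma adjusted p = 0.309). *Insig2* was highest of its group in 10 mg/kg replicate 4, at 969 TPM, and in 20 mg/kg replicate 2, at 1284 TPM. Against the DPBS-treated mice all 5 regulators, *Insig2* among them, had positive differences at 20 mg/kg, from 0.01 to 0.45. *Srebf2* ranged from 85.9 to 284 TPM in those DPBS-treated mice.

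*Srebf1* went in opposite directions at the dose levels, and neither difference was called. It was at 38.0, 23.4, 58.8, 48.4 and 59.3 TPM at 10 mg/kg, all below the 71.8, 85.6, 81.04 and 74.7 TPM of the controls (-0.84 ± 0.35, limma adjusted p = 0.275). At 20 mg/kg it was at 101, 157, 83.3, 102 and 31.2 TPM against 39.1 to 106 TPM (median 72.5), a difference of 0.30 ± 0.38. The deposited values are per gene and do not separate the long and short *Srebf1* forms. *Scap* had a difference of 0.41 ± 0.22 over both dose levels, and *Insig1*, at 20.0 to 59.9 TPM in the ASO-treated mice, a difference of 0.04 ± 0.27.

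At the lower dose level, where 10 mg/kg of *Upf3b*-GalNAc-ASO stood against 15 mg/kg of Control-GalNAc-ASO, the doses differ. All 11 fatty acid genes had negative differences, with a median of -0.78, and 8 of 17 sterol genes did, with a median of 0.13. Without the library labelled replicate 3 the medians were -0.73 and 0.06. Of 33 genes 1 was called, *Scd1*, which fell by 1.65 ± 0.31 (limma adjusted p = 0.038), where 0.175% of 9166 genes were called lower. By the study's thresholds 3 were lower (*Fasn*, *Scd1* and *Thrsp*), where 2.25% of all genes were. The groups did not overlap for 4 genes, *Idi1*, *Cyp51*, *Srebf1* and *Scd1*, each lower in all 5 mice, where 2.73% of all genes were apart in that direction. The exact permutation test, two-sided and unadjusted, gave p = 0.0079 for the means of *Scd1* and *Cyp51*, the smallest that 126 splits of these mice allow, and 0.048 and 0.071 for their medians. Groups that do not overlap give a small p for the means by themselves, so it is no separate support. Without the library labelled *Upf3b*-GalNAc-ASO replicate 3 *Scd1* was still called. The call was lost without any one of Control-GalNAc-ASO replicates 1 to 4 or *Upf3b*-GalNAc-ASO replicates 2, 4 or 5, with an adjusted p of up to 0.208 in limma and differences between -1.81 and -1.49, and 2 genes were called without *Upf3b*-GalNAc-ASO replicate 1. By the study's thresholds 5 were lower without Control-GalNAc-ASO replicate 3. The shares of all genes that go with the counts of 2 and 5 are not given here.

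At 20 mg/kg of both ASOs, 10 of 11 fatty acid genes had negative differences, with a median of -1.03, and 10 of 17 sterol genes, with a median of -0.30, beside -0.12 over all genes. Without replicate 2 the medians were -0.72, -0.13 and -0.04. Of 33 genes 2 were called, *Scd1* (-1.33 ± 0.32, limma adjusted p = 0.031) and *Cyp51* (-1.17 ± 0.31, limma adjusted p = 0.048), where 1.59% of 9376 genes were called lower. By the study's thresholds 6 were lower (*Cyp51*, *Acaca*, *Acacb*, *Scd1*, *Me1* and *Thrsp*), where 3.87% of all genes were. *Cyp51*, *Idi1*, *Elovl6* and *Fads1* were lower in all 5 mice than in all 6 controls, 4 of 33 where 1.82% of all genes were. The exact permutation test, two-sided and unadjusted, gave p = 0.0022 for the means of *Cyp51*, *Idi1* and *Elovl6*, the smallest that 462 splits allow, and 0.052, 0.026 and 0.013 for their medians. Here too the p for the means restates the lack of overlap. Scaling the mice by median-of-ratios size factors moved the median of all genes from -0.12 to -0.01, and *Scd1* then had a difference of -1.23 (limma adjusted p = 0.054). Over all genes 149 were called lower and 87 higher, and after that scaling 128 and 153. Leaving out 1 mouse took the call from *Cyp51* in 8 of 11 cases and from *Scd1* in 6 of 11, with adjusted p-values up to 0.132 and 0.111. *Cyp51* was lost without Control-GalNAc-ASO replicates 1, 2, 3, 5 or 6 or *Upf3b*-GalNAc-ASO replicates 1, 5 or 6, and *Scd1* without Control-GalNAc-ASO replicates 2, 3, 4 or 5 or *Upf3b*-GalNAc-ASO replicates 4 or 6. Without *Upf3b*-GalNAc-ASO replicate 2, 5 genes were called (*Cyp51*, *Idi1*, *Insig2* and *Scd1* lower and *Srebf2* higher) and *Cyp51* had a difference of -0.86. Of all genes 1.56% were then called lower and 1.29% higher. Without Control-GalNAc-ASO replicate 2, 3 genes passed the study's thresholds, and the share of all genes that did so is not given here.

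Whether the effect differed between the dose levels was tested directly. By limma 0 of 33 genes were called (0% of all genes tested), and 1 had an unadjusted p under 0.05, *Srebf1*, with a difference between the effects of 1.15 ± 0.54, where 8.16% of all genes did. For *Scd1* the difference between the effects was 0.33 ± 0.46 and for *Idi1* -0.99 ± 0.73. The doses of the controls differ between the levels too, so the comparison is not one of 10 against 20 mg/kg of *Upf3b*-GalNAc-ASO alone.

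The 2 branches were also averaged within each mouse, as the mean log2(TPM + 1) of the 17 sterol genes and of the 11 fatty acid genes. The fatty acid mean was 7.92 ± 0.25 and 7.45 ± 0.23 in the controls at 15 and 20 mg/kg (SD, n = 4 and 6) and 6.997 ± 0.29 and 6.54 ± 0.63 in the *Upf3b*-GalNAc-ASO mice at 10 and 20 mg/kg (SD, n = 5 each). The sterol mean was 6.70 ± 0.54 and 6.86 ± 0.40 in the controls and 6.59 ± 0.31 and 6.55 ± 0.60 in the treated mice. The group means of the sterol genes differed by less than their SD. Replicate 2 at 20 mg/kg, at 5.64, lay below every control, and replicate 5, at 6.44, below the 6 controls of its dose level, the lowest of which was at 6.49. The fatty acid means of all 5 mice at 10 mg/kg were at most 7.45, below all 4 controls at 7.61 or more. At 20 mg/kg 4 of 5 treated mice lay below all 6 controls, and replicate 1 was level with the lowest control, both at 7.14. The sterol mean minus the fatty acid mean went from -1.22 to -0.40 at the lower and from -0.59 to 0.01 at the higher dose level, differences of 0.81 and 0.60. Without both mice that stood apart they were 0.75 and 0.57. The SDs of this score were 0.49 and 0.49 in the controls and 0.32 and 0.28 in the treated mice. In the 11 DPBS-treated mice it was -0.66 ± 0.51 (SD), from -1.58 to 0.32. The 15 mg/kg controls thus lay below the buffer mean and the 20 mg/kg controls near it. The DPBS fatty acid mean was 7.56 ± 0.19 and the sterol mean 6.90 ± 0.52. These are descriptions of a chosen list and carry no test.

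**Figure D3:**
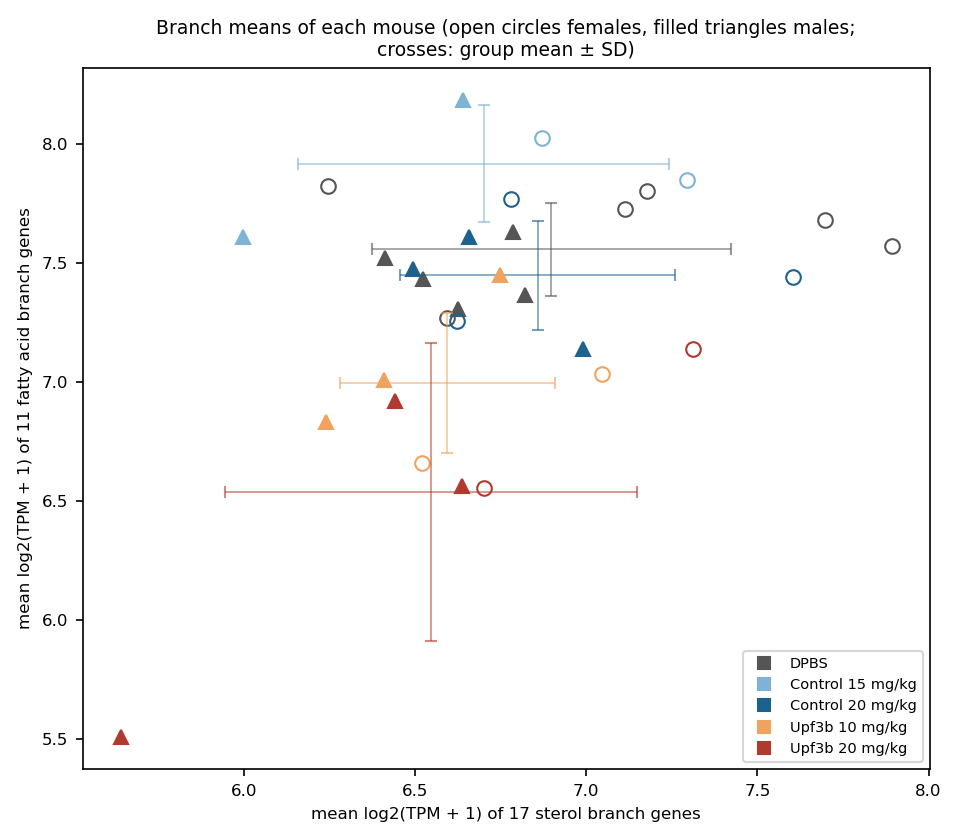
Mean log2(TPM + 1) of the 17 sterol genes (x axis) and of the 11 fatty acid genes (y axis) in each mouse, with group means ± SD as crosses, open circles for females and filled triangles for males. The groups differ along the y axis, from 7.92 and 7.45 in the Control-GalNAc-ASO groups to 6.997 and 6.54 in the *Upf3b*-GalNAc-ASO groups, and overlap along the x axis. The DPBS-treated group has a y mean of 7.56. The mouse at the lower left, at 5.64 and 5.51, is *Upf3b*-GalNAc-ASO 20 mg/kg replicate 2.

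The Control-GalNAc-ASO itself was compared with DPBS, which shows the background of ASO treatment. At 15 mg/kg limma called 0 of 33 genes (0% of 8971), and 4 had an unadjusted p under 0.05, where 7.18% of all genes did. These were *Scd1*, *Elovl5* and *Fads1* with positive differences of 0.55, 0.49 and 0.72, and *Fdps*, the farnesyl diphosphate synthase, with -0.84. The fatty acid median was 0.36, with 10 of 11 genes higher, and the sterol median -0.08, beside 0.07 over all genes. At 20 mg/kg 0 genes were called (0% of 9140) and 3 had an unadjusted p under 0.05, where 9.9% of all genes did, *Insig2* higher and *Mvk* (-0.86) and *Thrsp* (-0.79) lower. Both branch medians were near 0, at -0.06 and 0.05, beside 0.15 over all genes.

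*Insig2* stood out among the regulators in that comparison. It was at 515 to 961 TPM (median 894) in the Control-GalNAc-ASO 20 mg/kg mice against 202 to 622 TPM (median 364) in the DPBS-treated mice, with 5 of 6 mice above all 11. The difference was 1.08 ± 0.21 (limma adjusted p = 0.103). It passed the study's thresholds, as 0.842% of all genes did in that direction, although neither after scaling by size factors nor without DPBS replicate 11. Without Control-GalNAc-ASO replicate 5 or DPBS replicate 1, 1 of the 33 genes was called at 20 mg/kg, and the share of all genes is not given for these fits. In liver *Insig2* has a form that is repressed by insulin, which the deposited values per gene do not separate.

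The *Upf3b*-GalNAc-ASO groups were set against the same 11 DPBS-treated mice. At 10 mg/kg 1 of 33 genes was called, *Thrsp*, which fell by 1.87 ± 0.33 (limma adjusted p = 0.00456), where 0.266% of 9032 genes were called lower. At 20 mg/kg 3 were, where 0.837% of 9078 genes were called lower. They were *Thrsp* (-2.47 ± 0.37), *Scd1* (-1.68 ± 0.27) and *Me1* (-1.08 ± 0.26), with limma adjusted p = 4.71e-04, 7.18e-04 and 0.038. *Scd1* and *Thrsp* were lower in all 5 mice than in all 11, at most 1409 against at least 1761 TPM and at most 188 against at least 353 TPM, where 0.474% of all genes were apart in that direction. At 10 mg/kg 2 genes were called without DPBS replicate 2 or *Upf3b*-GalNAc-ASO replicate 5, and at 20 mg/kg 5 without *Upf3b*-GalNAc-ASO replicate 5. The shares of all genes called without these mice are not given here. *Me1* lost its call without DPBS replicates 1, 3, 4, 5, 8 or 11 or *Upf3b*-GalNAc-ASO replicates 2 or 6, with a limma adjusted p of up to 0.102 and a difference of -0.80 without replicate 2. *Idi1* and *Cyp51* were not called, at -0.80 and -0.80 at 10 mg/kg and -1.08 and -0.92 at 20 mg/kg. The fatty acid median was -0.31 at 10 mg/kg and -1.08 at 20 mg/kg, and the sterol median -0.36 and -0.31. At 10 mg/kg the sterol median was thus the lower one. Without the library labelled replicate 3 at 10 mg/kg the medians were -0.38 and -0.27, and without replicate 2 at 20 mg/kg -0.80 and -0.08. Of the 5 regulators 0 were called at either dose. At 10 mg/kg 4 were lower and 1 higher, with differences from -0.82 to 0.33, and at 20 mg/kg all 5 were higher. These comparisons share the DPBS-treated mice, and those of the Control-GalNAc-ASO share them too.

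**Figure D4:**
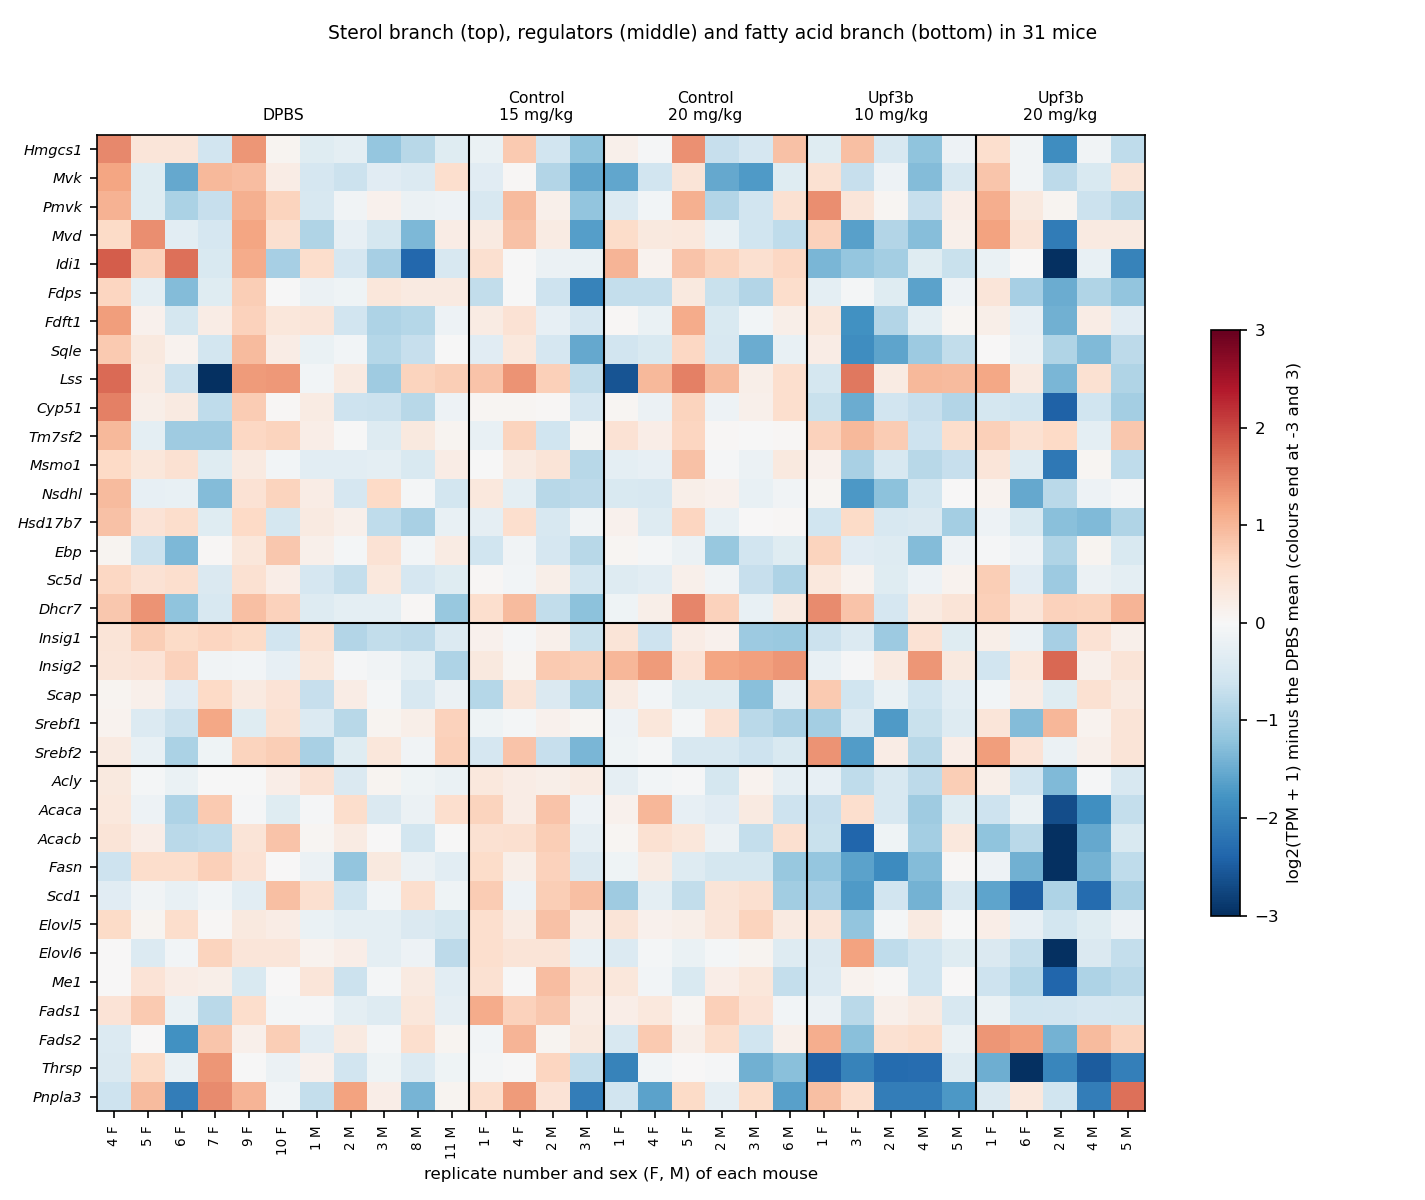
Colour shows log2(TPM + 1) minus the mean of the 11 DPBS-treated mice for each of the 34 genes (rows) in each of the 31 mice (columns, by group and within it by sex), ending at -3 and 3. In the fatty acid block the rows of *Acacb*, *Fasn*, *Scd1* and *Thrsp* are blue in most of the 10 *Upf3b*-GalNAc-ASO columns, and the sterol block varies more from mouse to mouse within every group.

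The sterol genes varied together from mouse to mouse, also inside groups. After group and sex means were taken out, the median Pearson correlation over the 136 pairs of sterol genes was 0.38 across 31 mice, with 91.2% of pairs positive. Over the 55 fatty acid pairs it was 0.24, between the branches 0.14 and over the pairs of 9840 genes 0.02. *Srebf2* had a median correlation of 0.38 with the sterol genes, *Scap* 0.21, *Insig1* 0.14, *Srebf1* -0.10 and *Insig2* -0.20. With the fatty acid genes these were 0.21 for *Srebf2*, 0.22 for *Insig1*, 0.00 for *Scap*, -0.02 for *Srebf1* and -0.31 for *Insig2*. The order of the regulators rested on a few libraries. Without the 4 shallowest, *Insig1* was at 0.38 and *Srebf2* at 0.19 with the sterol genes. Without both mice that stood apart *Scap* was at 0.05 and *Srebf2* at 0.28 with the sterol genes, and *Srebf1* was at 0.18, *Insig2* at -0.09 and *Srebf2* at 0.06 with the fatty acid genes. Leaving out 1 mouse moved the sterol median between 0.35 and 0.41 and the fatty acid median between 0.14 and 0.26. Without both mice that stood apart the values were 0.40 for sterol pairs, 0.14 for fatty acid pairs and 0.04 between the branches. Genes of a mouse share its library and depth, and no test was made.

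Among the DPBS-treated mice the sterol genes tended to be higher in females. The sterol mean was 7.12 ± 0.63 in 6 females and 6.63 ± 0.17 in 5 males, and the fatty acid mean 7.65 ± 0.20 and 7.45 ± 0.13. By limma 0 of 34 genes were called, where 1.41% of 8998 genes were, and 9 had an unadjusted p under 0.05 and a lower level in males, where 5.28% of all genes did. They were 7 sterol genes (*Hmgcs1*, *Mvd*, *Idi1*, *Fdft1*, *Sqle*, *Cyp51* and *Sc5d*), *Insig1* and *Elovl5*. *Hmgcs1* had the smallest p among them, with 239 to 970.1 TPM (median 456) in females and 157 to 291 TPM (median 275) in males, a difference of -1.10 ± 0.32 (limma adjusted p = 0.142). *Elovl5* did not overlap, at 431 to 622 TPM (median 503) in females and 288 to 362 TPM (median 341) in males, 1 of 34 genes where 1.19% of all genes were apart and lower in males. *Scd1* was alike in both sexes by its range, at 2117 to 4987 TPM in females and 1761 to 3808 TPM in males, with a difference of 0.06 (95% interval -0.48 to 0.59). Without DPBS replicate 7, 1 gene was called, and the share of all genes is not given for that fit. Sex was a term of every other limma comparison.

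**Figure D5:**
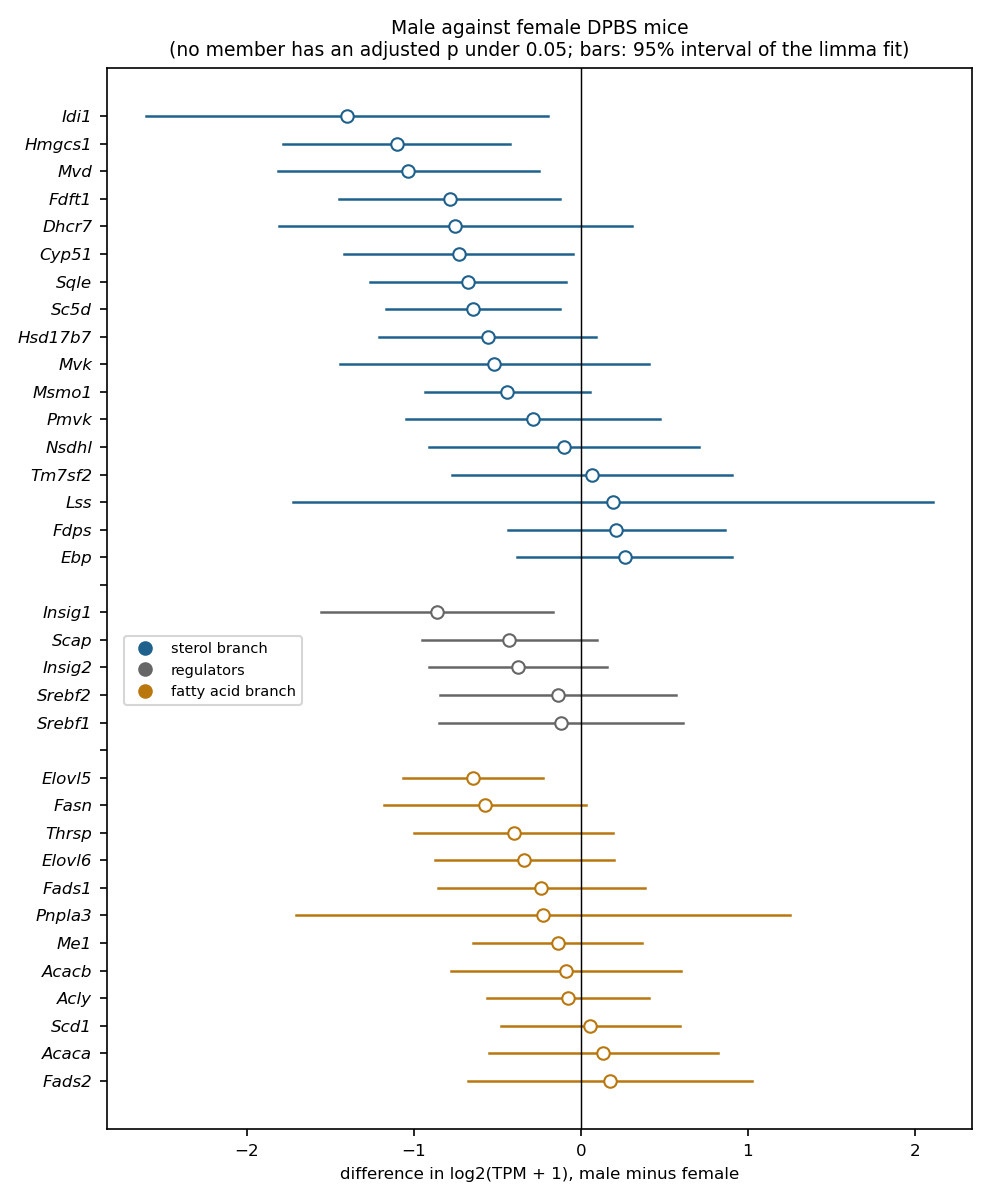
Difference in log2(TPM + 1) between 5 male and 6 female DPBS-treated mice (x axis, male minus female) for each of the 34 genes (y axis) by branch. Points are limma estimates and bars 95% intervals. Of the 17 sterol genes 13 lie to the left of 0, with a median of -0.56, against -0.18 for the fatty acid genes.

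Neighbouring genes of lipid metabolism were read over both dose levels from 2 further lists, beside the 3.64% of all genes called lower and 2.4% called higher. Of 12 lipogenic and glycolytic genes 10 were tested and 1 was called, *Lpin1*, the phosphatidate phosphatase of triglyceride synthesis, which fell by 1.26 ± 0.24 (limma adjusted p = 0.00181). The carbohydrate sensor *Mlxipl* (-0.17 ± 0.19) and its target *Pklr* (-0.71 ± 0.25, limma adjusted p = 0.087) were not called. Of 10 genes of cholesterol disposal and storage 9 were tested and 2 fell, *Stard4*, a sterol carrier that SREBPs control (-1.11 ± 0.24, limma adjusted p = 0.00541), and *Cyp27a1*, a bile acid enzyme (-0.66 ± 0.20, limma adjusted p = 0.041). *Soat2*, which esterifies cholesterol, had a difference of 1.09 ± 0.38 (limma adjusted p = 0.082) and *Cyp7a1*, the rate-limiting enzyme of bile acid synthesis, a difference of -0.59 ± 0.50.

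Markers of liver cell types were read over both dose levels in the same way, beside 3.64% of all genes called lower and 2.4% called higher. Of 6 hepatocyte markers 1 was called, *Pck1*, which is also a gluconeogenic gene set by feeding and insulin, and it fell by 1.18 ± 0.24 (limma adjusted p = 0.00317). Its level was 7938 ± 2171 TPM (SD, n = 4) and 4943 ± 2989 TPM (SD, n = 6) in the controls and 3483 ± 659 and 2045 ± 1012 TPM (SD, n = 5 each) in the treated mice. Of the 6 hepatocyte markers 5 were lower and 1 higher, with a median of -0.21. Their summed level had medians of 33463 and 29256 TPM in the controls at 15 and 20 mg/kg. In the mice at 10 and 20 mg/kg of *Upf3b*-GalNAc-ASO the medians were 22143.5 and 26014 TPM. Of 5 sinusoidal endothelial markers *Pecam1* rose by 1.06 ± 0.23 (limma adjusted p = 0.00556), and the others were not called. *Lyve1* was at 0.03 and *Clec4g*, *Stab2* and *Kdr* at -0.45, -0.48 and -0.65, so that 3 of 5 were lower, with a median of -0.45. Their summed level, most of it *Pecam1*, was 1535 to 2210 TPM at 20 mg/kg of *Upf3b*-GalNAc-ASO against 591 to 1643 TPM in its controls. None of the 4 tested Kupffer cell, 4 stellate, 2 cholangiocyte, 2 lymphocyte and myeloid and 2 dividing cell markers was called by limma. The 5 adipocyte markers summed to at most 7.84 TPM in every mouse but *Upf3b*-GalNAc-ASO 20 mg/kg replicate 2, at 65.5 TPM, of which *Cidec* made 63.9 TPM, and *Plin1* and *Lep* were at 0 in all ASO-treated mice. The part of these differences in the falls of the fatty acid genes was not tested.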

How the data were processed

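Total liver RNA of 31 mice was sequenced by the study, 1 library a mouse. The authors deposited TPM for each gene symbol, made with Salmon 0.7.2 after base calling with bcl2fastq 2.17.1.14, per the labels against GRCm38.p4. The labels name a 3′ tag kit and the study's methods another, so the level of each gene was compared between mice. Branch means, their difference and marker sums, with the shares of *Pecam1* and *Cidec* in them, do combine levels of several genes. Each table held 31198 rows, of which 26 whose symbols had become dates were left out. The value of 1 read was recovered from each table, and 69.9 to 81.5% of values were whole multiples of it within 0.02 read, where chance gives 4%. The *Upf1* groups of the design are not analysed here.

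Only genes whose median reached 5 TPM in any group of a comparison were fitted with limma 3.58.1 in R 4.3.3 (trend and robust moderation) to log2(TPM + 1), sex being a covariate, with Benjamini-Hochberg adjustment over all genes tested. A fold change on this scale understates that of low genes. Single genes were tested by exact permutation in Python 3.11.15 with numpy 2.4.6, with no term for sex. The authors' own test could not be repeated from its description. In simulated data with 200 changed genes the 2-fold changes were recovered in 36% of cases over both dose levels, and 4-fold changes in 84%, but in 0% and 29% at the lower dose level alone. Members, lists and tests were chosen with earlier results of these data known. Named with values were the regulators, each gene called or past the study's thresholds in any comparison, and the 2 largest rises and falls of each branch. Alternatives varied the pseudocount, filter, scaling, weights, covariate, groups in the fit and mice.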

Additional observations from a re-analysis of the deposited data

Results flagged for a closer look

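In each group of 4 to 6 mice, the highest and the lowest value were compared with the rest by Dixon's test. Of 152 combinations of a quantity and a group 16 stood out, where 7.6 would by chance at 1 in 20. In the *Upf3b*-GalNAc-ASO 10 mg/kg group these were *Fdps* at 92.3 TPM and *Insig2* at 969 TPM in replicate 4, *Scap* at 224 TPM in replicate 1, and *Acly* at 229.6, *Fasn* at 262 and *Thrsp* at 402 TPM in replicate 5. In the library labelled replicate 3 of that group, where *Upf3b* was not low, *Hsd17b7* was at 249 TPM and *Elovl6* at 414 TPM. In the *Upf3b*-GalNAc-ASO 20 mg/kg group *Insig2* was at 1284, *Elovl6* at 16.5 and *Me1* at 50.5 TPM in replicate 2, *Fdps* at 362 and *Fads1* at 78.6 TPM in replicate 1, and the sterol mean minus the fatty acid mean was -0.48 in replicate 5, where the other 4 mice were at 0.07 to 0.17. Among the controls *Cyp51* stood low at 407 TPM in Control-GalNAc-ASO 15 mg/kg replicate 3, and *Fdft1* high at 305 TPM in Control-GalNAc-ASO 20 mg/kg replicate 5.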

How the results depend on the processing

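Counts are of members called at an adjusted p under 0.05 by limma, and causes of the changes were not tested. The share of all genes called under each alternative is not given in this section. A change in a count is therefore not a result about these genes. Over both dose levels 9 became 5 with no filter on low values. At the lower dose level 1 became 0 with a pseudocount of 0.5, with no filter or with no sex covariate, and 2 with a pseudocount of 5. At the higher dose level 2 became 0 with no filter, 1 with a pseudocount of 0.5, with weights per mouse, with no sex covariate or without the 4 shallowest libraries, and 5 with all 5 groups in 1 fit. Against DPBS, 10 mg/kg went from 1 to 2 and 20 mg/kg from 3 to 5 with all groups in 1 fit, and 20 mg/kg to 5 with weights. With weights the Control-GalNAc-ASO went from 0 to 2 at 15 mg/kg and from 0 to 1 at 20 mg/kg, and the sexes from 0 to 5 (2 without the 4 shallowest libraries). Leaving out 1 mouse gave 6 to 11 over both dose levels, 0 to 2 and 0 to 5 at the lower and higher level, 0 for the difference between levels, 0 and 0 to 1 for the controls, 1 to 2 and 2 to 5 against DPBS and 0 to 1 between the sexes. The difference of *Insig1* over both levels (0.04) lay between -0.058 and 0.125 on leaving out 1 mouse.

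Mice with the same replicate number did not deviate together (correlations of -0.26 to 0.36), so the numbers do not pair them. A replicate block gave 5 calls over both dose levels, 3 at the lower and 0 at the higher level, and 0 at 10 mg/kg against DPBS, and *Insig1* at -0.082. With no replicate block in the same mice the higher level and 10 mg/kg against DPBS gave 0 as well and *Insig1* was at -0.055. No paired analysis was possible because each DPBS mouse has its own number for the sexes, and the difference between dose levels was not fitted with a block. Depth limits low genes: *Pnpla3* could not be tested between treatments.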
